A study of Mus musculus with 96 samples.

Results

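The data described here are nuclear RNA-seq counts from VIP interneurons of mouse visual cortex whose Igf1 enhancers were intact, taken after 1 h of light or in continued darkness. The members are defined by their labels and are 8 of the 96 libraries of the series. In the light group are the 4 VIP libraries of the E123 line that received the inactive recombinase dCre and were exposed to light. In the dark group are the 4 VIP libraries of the same line and virus that stayed in the dark. All 8 came from mice labelled Igf1-E123 fl/fl and VIP flp/wt, which carry sites for Cre around enhancers of Igf1 and the Flp recombinase in VIP cells. An adeno-associated virus, AAV-Syn1-fDIO-mScarlet-KASH-2a-dCre, was injected into visual cortex at postnatal day 55 to 60. Its cargo is switched on by Flp, so the dCre and the red nuclear-envelope tag reach only VIP cells, and dCre does not cut the enhancers. The mice were moved to darkness 3 days later for 10 to 12 days, and the light group then saw light for 1 h before harvest, while the dark group was harvested in the dark. Each library holds 50 to 100 nuclei sorted by flow cytometry, so a library is a small pool and rare transcripts are sampled unevenly.

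The other groups used below were the same light and dark pair in VIP nuclei of 2 further lines with dCre, in VIP nuclei of the E123 line with active Cre, and in total nuclei of the E123 line with dCre. The lines are Igf1-E23 fl/fl and Igf1-E1 fl/fl, both with VIP flp/wt. E23 dCre gave 4 light and 4 dark VIP libraries, E1 dCre gave 5 light and 3 dark, E123 Cre gave 4 light and 3 dark, and the E123 dCre total nuclei gave 4 and 4. The series was designed around removal of Igf1 enhancers in VIP cells. The pair of E123 dCre groups is the baseline light response of that line. The sample titles number the libraries as biological replicates (BioRep). The labels do not say further whether these were separate animals, so the p-values measure the spread between these libraries.

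VIP interneurons are GABAergic cells of the cortex that mostly inhibit other interneurons and so release excitatory cells from inhibition. When a neuron is strongly activated after a quiet period, calcium entry and cAMP drive kinases that act on factors already present, such as CREB and SRF. These switch on rapid immediate-early genes within minutes, many of which encode transcription factors of the AP-1, Egr and Nr4a families. Those factors then act on later effector genes that differ between cell types, and Igf1 is a known light-induced gene of VIP cells. RNA in the nucleus is largely newly made, so a 1 h exposure samples the early part of this sequence.

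Light libraries held 2803461 to 8213684 counts and 16296 to 21312 detected genes, against 2745154 to 6396065 counts and 19803 to 21283 genes in dark libraries. Light replicates 1 and 2 are labelled male and were the deepest of the 4, with 8213684 and 6802161 counts, and light replicates 3 and 4 are labelled female, with 3029088 and 2803461. Sex and depth therefore cannot be told apart among the light libraries. Dark replicates 1, 2 and 4 are labelled female and replicate 3 male, but dark replicate 2 held 0.753 CPM (counts per 1000000 counts) of Xist and 241.5 of Y-linked genes, so it went against its label. A length index, the mean log2 level of genes spanning more than 100 kb minus that of genes under 10 kb, was 3.52, 3.66, 3.90 and 3.90 in light replicates 1 to 4 and 4.84, 4.84, 3.84 and 3.46 in dark replicates 1 to 4. Dark replicates 1 and 2 thus stood apart from the other 6, and results are also given without them where that matters. The nuclei carried the markers of their label: the 13 VIP markers summed to 15400 to 36560 CPM in light libraries and 14920 to 30850 in dark ones, while total nuclei of the same line and virus held 327.9 to 1743.

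Levels are CPM on scaled library sizes, and differences are log2 of light over dark with their standard error, from edgeR's quasi-likelihood test with Benjamini-Hochberg adjustment over 20585 genes. Of these genes, 2 passed at an adjusted p under 0.05 (0.00972%), both higher after light, and none was lower. At an unadjusted p under 0.05 there were 1433 genes (6.96%), 679 higher after light (3.3%) and 754 lower (3.66%), and at an unadjusted p under 0.001 there were 39 higher (0.189%) and 15 lower (0.0729%). In 456 genes all 4 light libraries lay above all 4 dark ones (2.22%), and in 568 all 4 lay below (2.76%). The 4 light and 4 dark libraries varied widely, with a biological coefficient of variation of 0.815 over the VIP libraries.

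Fosl2, which encodes an AP-1 subunit of the Fos family, rose after light. It stood at 164.5, 110.5, 131.8 and 98.3 CPM in light replicates 1 to 4, against 10.6, 12.4, 18.8 and 7.26 CPM in dark replicates 1 to 4. The lowest light library lay more than 5 times above the highest dark one. The difference was 3.37 ± 0.593 (log2 ± SE, edgeR adjusted p = 0.0147). Nr4a1, an orphan nuclear receptor induced by cAMP and calcium, also rose, with 214.4, 184.4, 161.0 and 98.3 CPM after light against 27.97, 41.1, 43.6 and 42.0 CPM in the dark. Its groups did not overlap either, and light replicate 4 was the lowest of the light libraries in both genes. The difference was 2.09 ± 0.388 (edgeR adjusted p = 0.0171). Both calls depended on single libraries, while the sizes moved less. The Fosl2 light minus dark difference was 3.31 without dark replicate 1 (edgeR adjusted p = 0.107) and 3.28 without dark replicates 1 and 2 together (adjusted p = 1.0). It also missed the threshold without dark replicate 2 (adjusted p = 0.128), dark replicate 4 (0.0738) or light replicate 1 (0.0684). The Nr4a1 light minus dark difference was 1.96 without dark replicate 1 (edgeR adjusted p = 0.125) and 1.94 without dark replicates 1 and 2 together (adjusted p = 1.0). It missed the threshold as well without dark replicate 2 (adjusted p = 0.128), dark replicate 3 (0.0887), dark replicate 4 (0.0682), light replicate 1 (0.106) or light replicate 2 (0.055).

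**Figure D1:**
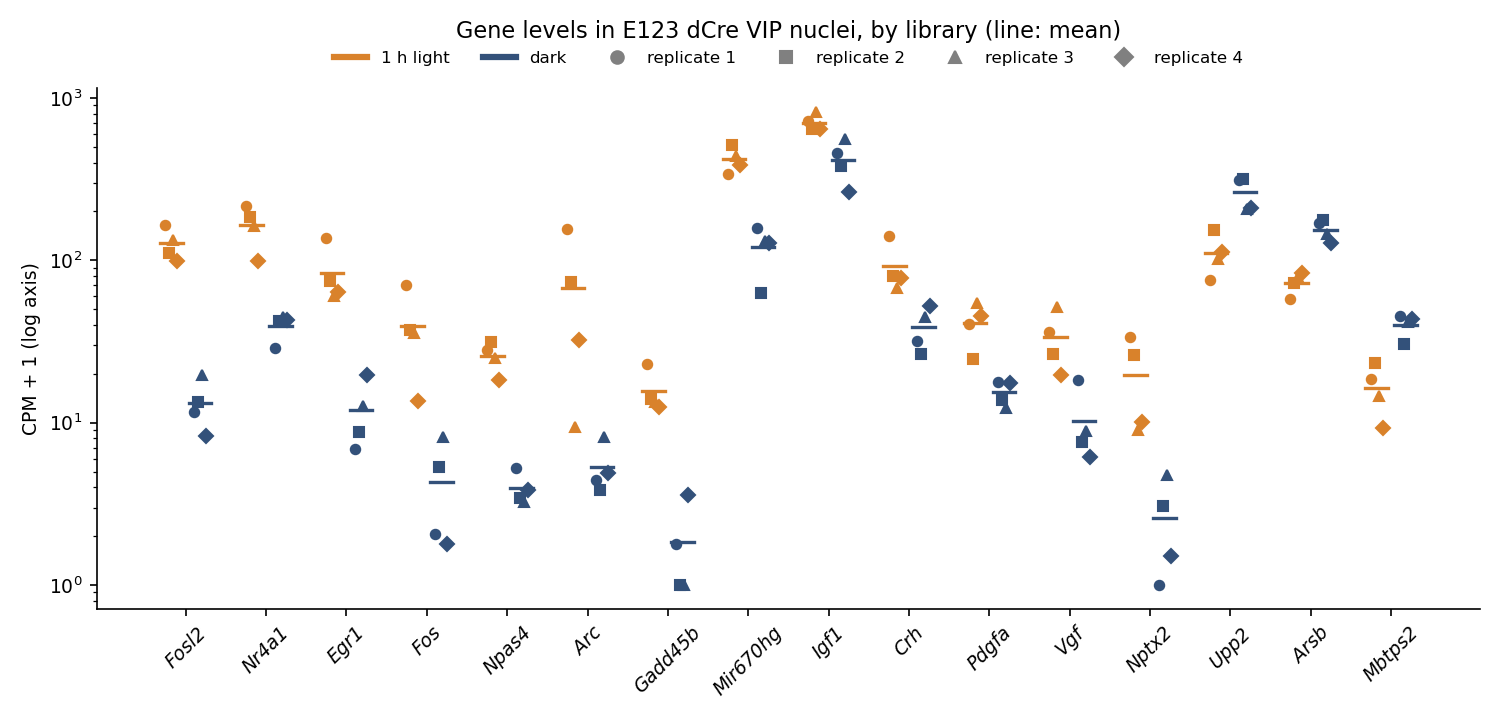
Levels as CPM + 1 (log axis) of 16 named genes in the 4 light (orange, left) and 4 dark (blue, right) E123 dCre VIP libraries, 1 marker shape per replicate and a bar at each group mean. Fosl2 and Nr4a1, which passed the test, sit between 98.3 and 214.4 CPM after light, above every dark library.

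An annotated start of each of these 2 genes and of Igf1 is shown because they are the genes the comparison turns on. The gene spans begin further upstream, at 101254269 for Nr4a1, 32135801 for Fosl2 and 87858265 for Igf1. Each start shown thus lies inside its gene, and any other start was not searched for motifs. Each window runs from 250 bases before the annotated start to 50 after it, from RefSeq on GRCm38.p6, on the plus strand at chr15:101266596-101266895 for Nr4a1, chr5:32136222-32136521 for Fosl2 and chr10:87860861-87861160 for Igf1. Capitals mark TGACG on either strand, the core of the site that CREB binds (read here as its complement CGTCA). They also mark TGANTCA, where N is any base, a pattern wider than the AP-1 site, which has C or G there.
Nr4a1: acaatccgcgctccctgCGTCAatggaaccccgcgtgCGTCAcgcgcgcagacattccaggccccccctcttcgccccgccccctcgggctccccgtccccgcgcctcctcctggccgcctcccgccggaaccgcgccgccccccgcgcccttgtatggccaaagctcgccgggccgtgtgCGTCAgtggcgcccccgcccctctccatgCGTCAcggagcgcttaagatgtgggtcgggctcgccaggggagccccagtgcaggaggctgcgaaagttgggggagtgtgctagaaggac
Fosl2: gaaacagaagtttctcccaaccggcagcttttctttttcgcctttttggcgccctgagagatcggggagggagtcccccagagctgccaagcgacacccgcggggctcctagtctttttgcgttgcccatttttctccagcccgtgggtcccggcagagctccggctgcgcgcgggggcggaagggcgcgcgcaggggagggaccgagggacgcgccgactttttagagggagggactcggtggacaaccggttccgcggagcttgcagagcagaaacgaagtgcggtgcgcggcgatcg
Igf1: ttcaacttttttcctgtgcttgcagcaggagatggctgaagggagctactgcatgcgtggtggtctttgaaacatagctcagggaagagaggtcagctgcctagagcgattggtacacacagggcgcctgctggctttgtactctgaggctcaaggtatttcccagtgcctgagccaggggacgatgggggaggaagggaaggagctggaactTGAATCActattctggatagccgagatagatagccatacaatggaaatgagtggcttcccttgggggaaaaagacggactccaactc

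The Nr4a1 window held 4 matches to TGACG, beginning at -233, -213, -69 and -40 relative to the start. Of 16311 windows of genes tested in VIP nuclei, 28.2% held TGACG at least once and 0.435% held it at least 4 times. The Fosl2 window held neither motif. The Igf1 window held 1 match to TGANTCA at -37, with A at the middle base and so not the AP-1 site itself. The wider TGANTCA pattern was found in 5.48% of those windows. Among the immediate-early lists, TGACG was found in the windows of 5 of 10 AP-1 genes, 6 of 8 Nr4a, Egr and Npas4 genes and 13 of 21 other rapid immediate-early genes. The motifs do not overlap each other, and a match is only a match of letters in this window.

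The AP-1 factors are dimers of Fos and Jun family proteins that bind sites within the TGANTCA pattern. All 10 tested of the 11 listed had a higher fitted level after light, with a median difference of 2.00, against 48.9% of all genes tested and a median of -0.0026 over all of them. Atf3 had only 6 counts, all after light, and with it at the bound its counts allow the median was 1.33. Fosl2 passed the test, and Fos and Fosl2 were the 2 whose groups did not overlap (20%, against 2.22% of all genes). Without dark replicates 1 and 2 the list median was 1.33. Leaving out 1 library at a time, the median ran from 1.24 without light replicate 2 to 3.03 without dark replicate 4. Fos itself stood at 69.8, 36, 34.7 and 12.6 CPM after light against 1.07, 4.33, 7.14 and 0.778 CPM in the dark, a difference of 3.56 ± 1.04 that did not pass (edgeR adjusted p = 0.449). Junb had 32.7, 15.7, 16.4 and 5.13 CPM against 1.33, 2.83, 3.01 and 5.45 CPM, with light replicate 4 inside the dark range (2.47 ± 0.641, edgeR adjusted p = 0.292). Its reads cannot be told apart from those of the overlapping Prdx2, since the libraries carry no strand. Fosb, whose truncated isoform is long-lived, had 6.79, 6.83, 2.19 and 0 CPM after light and was at 0 in 3 of 4 dark libraries. The summed level of the list was 287.5, 181.1, 194.6 and 117.7 CPM after light against 15.98, 22.8, 36.1 and 21.8 CPM in the dark, so the light libraries stood well above the dark ones as a group.

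The Nr4a receptors, the zinc-finger Egr factors and Npas4 are the other families of rapid transcription factors. All 10 were higher in the fit, with a median of 2.42, and in 5 of them the groups did not overlap (50%, against 2.22% of all genes). Egr1 had 136.3, 73.7, 59.2 and 62.8 CPM after light against 5.86, 7.72, 11.7 and 18.7 CPM in the dark (2.92 ± 0.645, edgeR adjusted p = 0.137). Npas4, a factor induced by calcium entry in neurons and little by other stimuli, had 27.04, 30.3, 24.1 and 17.4 CPM against 4.26, 2.45, 2.26 and 2.85 CPM (3.05 ± 0.951, edgeR adjusted p = 0.512). These were among the most even responses of the list: each light library lay 3 or more times above every dark library. Egr2 had 13.2, 2.17, 16.8 and 0 CPM after light and no count in any dark library, so it was at least 43.2-fold higher over the group, taking 3 counts over the dark group as the floor. Egr3 (42.1, 33.4, 19.4 and 9.87 CPM against 1.598, 2.26, 5.26 and 8.30 CPM) and Egr4 (14.5, 4.97, 6.57 and 2.37 CPM against 0, 0.377, 0.752 and 0.778 CPM) did not overlap. Nr4a3 (1.90) and Nr4a2 (2.26) had higher means after light but overlapped, and Nab2 and Nab1, corepressors that the Egr factors bind, stood at 1.43 and 0.55 with overlap. The summed level was 671.1, 468.5, 467.4 and 257.0 CPM after light against 78.8, 115.5, 144.8 and 120.6 CPM in the dark. Without dark replicates 1 and 2 the median was 1.94.

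The other rapid immediate-early genes encode synaptic, stress-response and signalling proteins beside further transcription factors. Of 25 tested of 26, 21 were higher in the fit with a median of 1.42 (1.31 without dark replicates 1 and 2). None passed, and 7 higher and 1 lower had an unadjusted p under 0.05, against 3.3% and 3.66% of all genes. In 2 the groups did not overlap (8%, against 2.22% of all genes). Gadd45b, a stress sensor linked to DNA demethylation in neurons, had 22.1, 13.04, 12.4 and 11.4 CPM after light against 0.799, 0, 0 and 2.59 CPM in the dark (4.07 ± 0.999, edgeR adjusted p = 0.198). Arc, which moves AMPA receptors off the synapse, had 155.7, 72.3, 8.40 and 31.2 CPM against 3.46, 2.83, 7.15 and 3.89 CPM (3.98 ± 1.096, edgeR adjusted p = 0.344). Both were separated, Gadd45b with light replicate 1 the highest and Arc with light replicate 3 only just above dark replicate 3.

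Ccn1, a secreted matrix protein, had 74.7, 2.95, 0 and 5.53 CPM after light against 0, 0, 0 and 1.56 CPM in the dark (5.65 ± 1.607, edgeR adjusted p = 0.368). Light replicate 1 alone carried most of this difference, and the groups overlapped. Trib1, a pseudokinase adaptor, had 26.4, 9.31, 15.7 and 2.76 CPM against 0, 1.13, 0.752 and 6.22 CPM (2.72 ± 1.093, edgeR adjusted p = 0.7). Klf6, a zinc-finger factor, was the member with an unadjusted p under 0.05 on the lower side, at 2.48, 10.2, 9.13 and 5.53 CPM against 8.52, 13.4, 15.8 and 24.9 CPM (-1.19 ± 0.595, edgeR adjusted p = 0.711). Ier2 (0.45) and Btg2 (-0.04) stood nearer 0. Its summed level was 743.1, 488.4, 377.2 and 312.3 CPM after light against 146.5, 142.8, 210.2 and 268.3 CPM in the dark, and every light sum lay above every dark one.

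The effector list holds genes of secreted, synaptic and signalling proteins that follow the first factors, and the noncoding transcript Mir670hg. Of 26 listed, 25 were higher in the fit (96.2%, against 48.9% of all genes) with a median of 1.02. The list was chosen with earlier results of these data known, so this share is a description and not a test. In 6 the groups did not overlap (23.1%, against 2.22% of all genes), but none passed the test. The long noncoding transcript Mir670hg came nearest, with 337.4, 515.5, 440.8 and 388.1 CPM after light against 157.4, 62.3, 130.5 and 127.3 CPM in the dark (1.82 ± 0.373, edgeR adjusted p = 0.0705). It is among the more abundant transcripts of the list, and its lowest light library stood more than 2 times above the highest dark one. Vgf, a secretory granule protein and peptide precursor, had 35.3, 25.6, 50.8 and 18.6 CPM against 17.3, 6.59, 7.90 and 5.18 CPM (1.81 ± 0.449, edgeR adjusted p = 0.199). Nptx2, a secreted pentraxin that clusters AMPA receptors, had 32.9, 25.1, 8.03 and 9.08 CPM against 0, 2.07, 3.76 and 0.518 CPM (3.59 ± 0.968, edgeR adjusted p = 0.292). Pdgfa, a growth factor ligand, had 39.3, 23.6, 53.7 and 44.6 CPM against 16.8, 12.8, 11.3 and 16.6 CPM (1.48 ± 0.404, edgeR adjusted p = 0.292). In these 3 genes every light library lay above every dark one, by a small margin in Vgf. Crh, the corticotropin-releasing hormone made by a subset of VIP cells, had 141, 79.6, 66.8 and 77.4 CPM against 30.9, 25.6, 44.0 and 51.3 CPM (1.27 ± 0.410, edgeR adjusted p = 0.556). Bdnf, whose product strengthens inhibitory and excitatory synapses, had 93.7, 38.2, 14.2 and 10.3 CPM against 5.06, 2.45, 16.9 and 0 CPM, so its groups overlapped.

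Homer1, whose short form is an immediate-early product that loosens postsynaptic scaffolds, had 545.7, 531.0, 185.9 and 149.2 CPM after light against 224.3, 168.9, 144.0 and 145.2 CPM in the dark (1.05 ± 0.371, edgeR adjusted p = 0.642). The 2 deep male light libraries were high and the 2 shallow female ones lay inside the dark range. Leaving out dark replicate 2, the difference was 1.91 ± 0.644 in male libraries (2 light and 1 dark) and -0.14 ± 0.479 in female libraries (2 and 2). The lone male dark library was assumed to vary like the other groups, and Homer1 is described by sex because of these values, so no test of the sexes is drawn from it. The same edgeR fit called 0 genes in males and 0 in females, with 345 and 1201 of 24136 genes at an unadjusted p under 0.05, and sex and depth cannot be told apart here. Arc and Sik2 showed the same order, with light replicates 1 and 2 the highest.

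**Figure D2:**
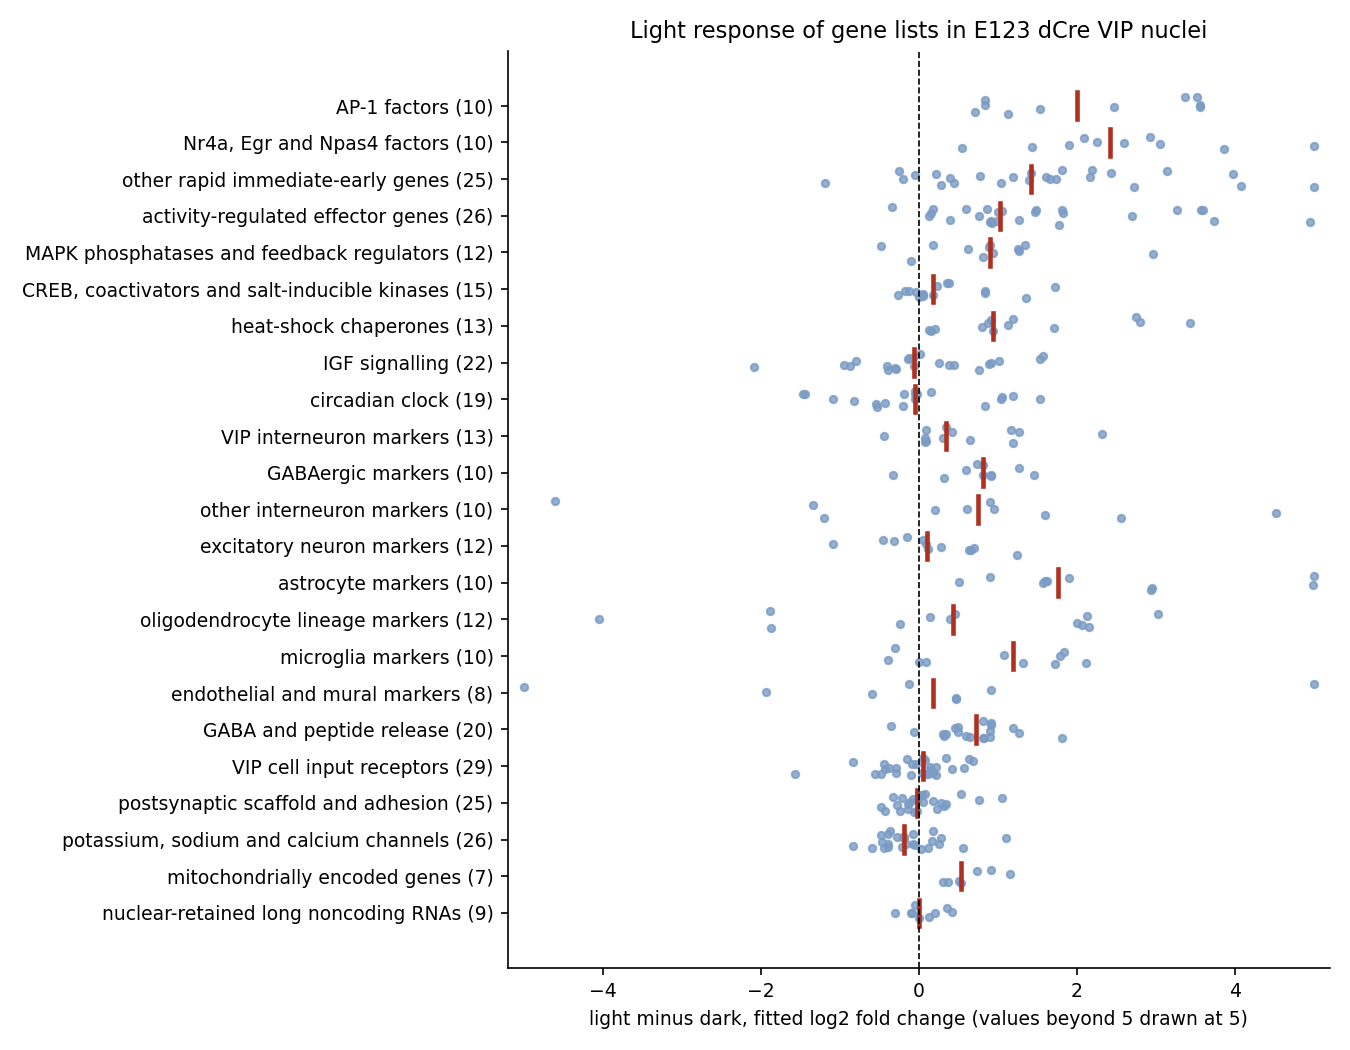
Fitted log2 differences, light over dark, of every tested member of each gene list (points) with the list median (bar) and the median of all genes (dashed line); values beyond 5 are drawn at 5. The Nr4a, Egr and Npas4 list has a median of 2.42 and the AP-1 list one of 2.00, or 1.33 with Atf3 at its bound, against 1.42 for the other rapid genes, and the channel list lies slightly below 0 at -0.19.

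MAPK phosphatases and Sprouty proteins switch off the ERK pathway and are themselves induced by it. Of 12 tested of 14, 10 were higher in the fit (median 0.89), none passed, and 2 did not overlap (16.7%, against 2.22% of all genes). Dusp5 had 12.5, 6.98, 4.75 and 9.48 CPM after light against 2.13, 1.51, 0 and 0.518 CPM in the dark (2.96 ± 1.183). Spry2 had 24.9, 17.7, 10.6 and 9.48 CPM against 5.59, 8.29, 6.02 and 4.93 CPM (1.34 ± 0.600). Dusp6, a phosphatase specific for ERK, had a difference of 1.27 ± 0.611 with overlap. For all 3 the edgeR adjusted p was 0.7.

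The CREB and salt-inducible kinase list joins the factor CREB, its coactivators and the kinases that hold those coactivators outside the nucleus. Of 15 genes, 11 were higher in the fit with a median of 0.18 (0.03 to 0.19 with 1 library left out, the lowest without dark replicate 4), and none passed. The phosphodiesterase Pde10a, which breaks down cAMP and cGMP, was abundant at 3175, 2667, 2313 and 2067 CPM after light against 963.9, 892.4, 704.4 and 533.1 CPM in the dark (1.72 ± 0.475, edgeR adjusted p = 0.334). Every light library was more than 2 times any dark one. The span of Pde10a overlaps those of Gm15425, Gm15426 and Gm17087. Sik2 had 581.7, 329.6, 212.9 and 161.5 CPM against 162.2, 113.0, 88.4 and 139.2 CPM (1.36 ± 0.361, edgeR adjusted p = 0.292), with light replicate 4 just inside the dark range, and its span overlaps that of Ppp2r1b. Sik3 had 684.7, 653.9, 760.0 and 609.2 CPM against 554.0, 443.5, 308.7 and 212.3 CPM (0.83 ± 0.289), without overlap. Crebbp (-0.26), Ep300 (-0.17), Creb1 (0.05) and Crtc1 (-0.04), the factor and coactivators themselves, stood near 0.

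Heat-shock chaperones fold and refold proteins and are induced by stress, and some also by neuronal activity. All 13 tested of 15 were higher in the fit (median 0.94), none passed and 3 did not overlap (23.1%, against 2.22% of all genes). Hsph1 had 152.7, 93.6, 93.8 and 48.2 CPM after light against 19.98, 35.4, 27.4 and 35.8 CPM in the dark (1.71 ± 0.460, edgeR adjusted p = 0.292). Dnajb1, a partner of Hsp70, had 32.9, 33.8, 7.67 and 10.7 CPM against 0.266, 3.20, 5.26 and 3.63 CPM (2.80 ± 0.691, edgeR adjusted p = 0.198). The list varied widely among the dark libraries. It summed to 1141, 904.3, 693.5 and 655.4 CPM after light against 307.1, 256.7, 586.3 and 765.4 CPM in the dark. Without dark replicates 1 and 2, the lowest of the 8 and the 2 of high length index, its median was 0.33, and with the length index as a covariate it was 0.69. It was 1.596 without dark replicate 4.

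Igf1 (chromosome 10, 87858265 to 87937042, plus strand, mm10) encodes insulin-like growth factor 1, which VIP cells secrete. Its 4 light libraries stood at 718.8, 639.2, 820.2 and 643.6 CPM, against 459.7, 381.0, 560.3 and 261.9 CPM in the dark, so every light library lay above every dark one. The means were 705.4 ± 84.8 CPM after light and 415.7 ± 126 CPM in the dark (SD, n = 4 each). The fitted difference was 0.76 ± 0.232 and did not pass over all genes (edgeR adjusted p = 0.481). The exact two-sided permutation test on log2(CPM + 1) gave a difference of 0.81 with p = 0.0286, the smallest that 4 against 4 libraries can give, and 0.0857 after adjustment over the 3 values tested this way (Igf1, Vip and the length index). Leaving out any 1 of the 8 libraries gave 0.60 to 0.97. The gene overlaps Igf1os on the other strand, so reads of the pair cannot be told apart.

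The other IGF signalling genes did not separate the groups. Among 22 tested, 10 were higher in the fit and the median was -0.06 (0.10 without dark replicates 1 and 2). Igf1 was the only one whose groups did not overlap in either direction (4.55%, against 2.22% of all genes higher and 2.76% lower). The receptor Igf1r stood at -0.12 and the insulin receptor Insr at -0.14. The secreted binding protein Igfbp5 had 10.8, 0, 2.92 and 32.0 CPM after light against 0.799, 4.71, 4.89 and 4.67 CPM in the dark. The adaptor Irs2 had 49.4, 57.6, 17.5 and 26.4 CPM against 26.1, 25.6, 16.6 and 13.5 CPM (0.89 ± 0.634). Downstream, Pik3r1 (-0.39 ± 0.277) and the forkhead factor Foxo3 (-0.79 ± 0.429) had lower means after light, both with overlap.

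The clock list holds genes of the circadian oscillator, of which Per1 is also induced by CREB within an hour of light in the suprachiasmatic nucleus. Of 19 tested, 6 were higher in the fit, the median was -0.05 (0.08 without dark replicates 1 and 2) and none separated the groups. Per1 had 83.0, 94.7, 110.7 and 65.9 CPM after light against 26.1, 21.1, 33.1 and 74.4 CPM in the dark, where only dark replicate 4 reached the light range (1.20 ± 0.481, edgeR adjusted p = 0.7). Per2 had 112.7, 107.2, 80.3 and 41.1 CPM against 38.4, 29.8, 39.1 and 59.6 CPM (1.04 ± 0.536). The clock output factors Hlf (-1.44 ± 0.706) and Dbp (-1.47 ± 0.787) had lower means after light with overlap, and Clock (-0.05) and Arntl (-0.03) stood near 0.

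VIP cells release GABA and several peptides. Of 20 genes for transmitter synthesis, peptide precursors and their processing, 18 were higher in the fit (90%, against 48.9% of all genes; median 0.73). None passed, and 4 did not overlap (20%, against 2.22% of all genes): Vgf, Gad2, Crh and Npy. Gad2, 1 of the 2 enzymes that make GABA, had 185.9, 274.5, 210.7 and 196.2 CPM after light against 119.9, 94.9, 173.7 and 106.3 CPM in the dark (0.81 ± 0.232, edgeR adjusted p = 0.368). Gad1, the other, had 403.9, 476.6, 378.3 and 276.4 CPM against 173.7, 115.1, 281.3 and 249.4 CPM (0.91 ± 0.272, edgeR adjusted p = 0.453). In Gad1 only light replicate 4 fell within the dark range, just under dark replicate 3, and its span holds the antisense gene Gad1os. Vip had 1877, 1361, 2621 and 2029 CPM against 792.4, 576.1, 1937 and 1731 CPM (0.65 ± 0.441), where dark replicates 1 and 2 were low and 3 and 4 lay inside the light range. Its exact permutation test gave p = 0.171, or 0.257 adjusted over the 3 values. Cck, cholecystokinin, which a subset of VIP cells makes, had 322.0, 187.3, 588.0 and 251.9 CPM against 171.8, 72.9, 98.2 and 248.1 CPM (1.19 ± 0.524). Without dark replicates 1 and 2 the list median was 0.41. The 10 GABAergic markers, which include Gad1 and Gad2, had 9 higher in the fit, with a median of 0.81 (0.57 without dark replicates 1 and 2). They summed to 4511 to 7015 CPM after light and 3636 to 7155 CPM in the dark. Whether cell content played a part in either list was not tested.

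Among the 13 VIP interneuron markers, which mark the sorted cells, 12 were higher in the fit with a median of 0.34 (0.11 without dark replicates 1 and 2, and 0.03 without light replicate 3 to 0.64 without dark replicate 4 when 1 library was left out). Crispld2, which encodes a secreted protein, had 36.8, 15.98, 146.1 and 36.3 CPM after light against 15.7, 5.08, 17.3 and 9.33 CPM in the dark (2.31 ± 0.511, edgeR adjusted p = 0.119). Npas1, a transcription factor of interneurons, had 50.4, 81.9, 127.8 and 69.9 CPM against 38.1, 25.1, 35.0 and 48.5 CPM (1.17 ± 0.370, edgeR adjusted p = 0.512). Calb2 (0.09), Prox1 (0.07) and Htr3a (0.07) stood near 0, while Vip (0.65) and Cck (1.19), also of this list, had higher means after light with overlap. In a pool of nuclei, fewer cells of a type and less RNA per cell cannot be told apart, so a marker's level carries both.

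Receptors, postsynaptic proteins and channels had medians close to that of all genes. Of 29 receptors for inputs to VIP cells, 16 were higher (median 0.06), and of 25 postsynaptic and adhesion genes, 12 were higher (median -0.02, or 0.18 without dark replicates 1 and 2) with Homer1 first by p. Of 26 potassium, sodium and calcium channel genes, 8 were higher with a median of -0.19, but the median was 0.12 without dark replicates 1 and 2, so the sign depended on them. Kcna1 was the channel with the smallest p, at 18.2, 23.1, 28.1 and 24.9 CPM after light against 11.7, 6.40, 14.7 and 11.2 CPM in the dark (1.104 ± 0.492), and the 1 channel with every light library above every dark one (3.85%, against 2.22% of all genes). Scn2a, a voltage-gated sodium channel, and Kcnc2, a potassium channel of fast-firing neurons, were the 2 channels with every light library below every dark one (7.69%, against 2.76% of all genes), Scn2a at 311, 237, 329 and 368 CPM against 415, 404, 384 and 437 CPM (-0.40 ± 0.213).

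The genes with the smallest p among those whose groups do not overlap, and that fall outside the lists above, were chosen by p and are given as the ranked tail of the comparison. Higher after light, Hnrnpa2b1, an RNA-binding protein of nuclear RNA processing, had 302.8, 245.8, 311.5 and 275.2 CPM against 111.9, 79.7, 144.4 and 177.9 CPM in the dark (1.14 ± 0.244, edgeR adjusted p = 0.0809). Myl12b, a regulatory light chain of nonmuscle myosin, is listed under 2 overlapping gene identifiers that share reads and gave 1.46 ± 0.337 and 1.48 ± 0.3501. Mt1, a metallothionein that binds zinc and copper, had 37.8, 12.6, 16.8 and 15.8 CPM against 0, 2.07, 1.88 and 3.11 CPM (3.54 ± 0.852, edgeR adjusted p = 0.198). In these genes the light libraries were separated from the dark ones, and none passed the test.

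Lower after light, Mbtps2, the site-2 protease that releases membrane-bound transcription factors, had 17.5, 22.4, 13.5 and 8.29 CPM against 44.2, 29.6, 40.6 and 42.5 CPM in the dark (-1.33 ± 0.316, edgeR adjusted p = 0.184), and the intronless Yy2 lies within its span. Arsb, a lysosomal sulfatase, had 56.8, 71.2, 77.4 and 82.1 CPM against 169.7, 175.0, 144.4 and 126.0 CPM (-1.10 ± 0.271, edgeR adjusted p = 0.198). Upp2, a uridine phosphorylase, had 75.1, 152.1, 100.8 and 111.7 CPM against 312.7, 317.9, 207.2 and 209.5 CPM (-1.25 ± 0.327, edgeR adjusted p = 0.292). The levels of all 3 were lower in every light library than in any dark one. The other genes of this rank were Bphl (-1.37 ± 0.366), the mitochondrial dehydrogenase Ivd (-1.57 ± 0.421), the DNA damage kinase Atm (-1.995 ± 0.539), the kinase Rps6ka5 (-1.22 ± 0.339), which phosphorylates CREB and histone H3, and the splicing regulator Ptbp2 (-0.93 ± 0.261). None passed the test, and their edgeR adjusted p ran from 0.292 to 0.334.

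Markers of other cells moved in part with the light group. The 10 astrocyte markers were all higher in the fit (median 1.76), with none separating the groups, and summed to 1043, 462.0, 231.2 and 911.2 CPM after light against 354.8, 271.6, 356.5 and 247.1 CPM in the dark. The 12 oligodendrocyte lineage markers, of which 8 were higher, had a median of 0.43, or 0.07 with the genes at 0 in a group set to their bound. They summed to 497.3, 158.3, 181.1 and 548.0 CPM after light against 122.8, 131.1, 122.6 and 133.8 CPM in the dark. All 4 light sums of the oligodendrocyte list lay above all 4 dark ones, as did the astrocyte sums of light replicates 1, 2 and 4, and light replicates 1 and 4 were the highest in both lists. For comparison, total nuclei of the same line and virus held 381.3 to 1025 CPM of the astrocyte list and 442.2 to 2922 CPM of the oligodendrocyte list. Among defining markers, Mbp, a myelin protein, had 309, 79.8, 104 and 340 CPM after light against 66.1, 45.2, 44.4 and 52.9 CPM in the dark, so all 4 light libraries lay above the dark ones. Olig2 and Sox10 had 0 counts in the light libraries and 6 and 1 counts in the dark ones, too few to compare. Of 12 excitatory, 10 microglia and 8 endothelial and mural markers, 8, 7 and 4 were higher in the fit and none separated the groups. The excitatory list, which includes Slc17a7, summed to 657.7 to 1543 CPM after light and 800.3 to 1315 CPM in the dark, the microglia list to 96.2 to 121.5 and 83.1 to 146.0 CPM, and the endothelial and mural list to 15.2 to 48.2 and 16.2 to 48.9 CPM. Of the 10 markers of other interneurons, 7 were higher in the fit, with a median of 0.75 that was -0.0042 without light replicate 2. They summed to 206.7 to 365.1 CPM after light and 113.2 to 269.1 CPM in the dark, against 172.3 to 306.9 CPM in total nuclei. Sst, which marks somatostatin cells, had 18.2, 51.4, 2.19 and 1.184 CPM after light against 0, 4.14, 4.89 and 3.37 CPM in the dark, and Pvalb stood at 0.95 with overlap. The 7 tested of 13 mitochondrially encoded genes were all higher, with a median of 0.54 that was 0.04 without light replicate 4. Nuclear-retained long noncoding RNAs had 4 of 9 higher, with a median of -0.0019 that was 0.19 without dark replicates 1 and 2. The part of RNA from glia, excitatory neurons or other interneurons in the responses above was not tested.

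**Figure D3:**
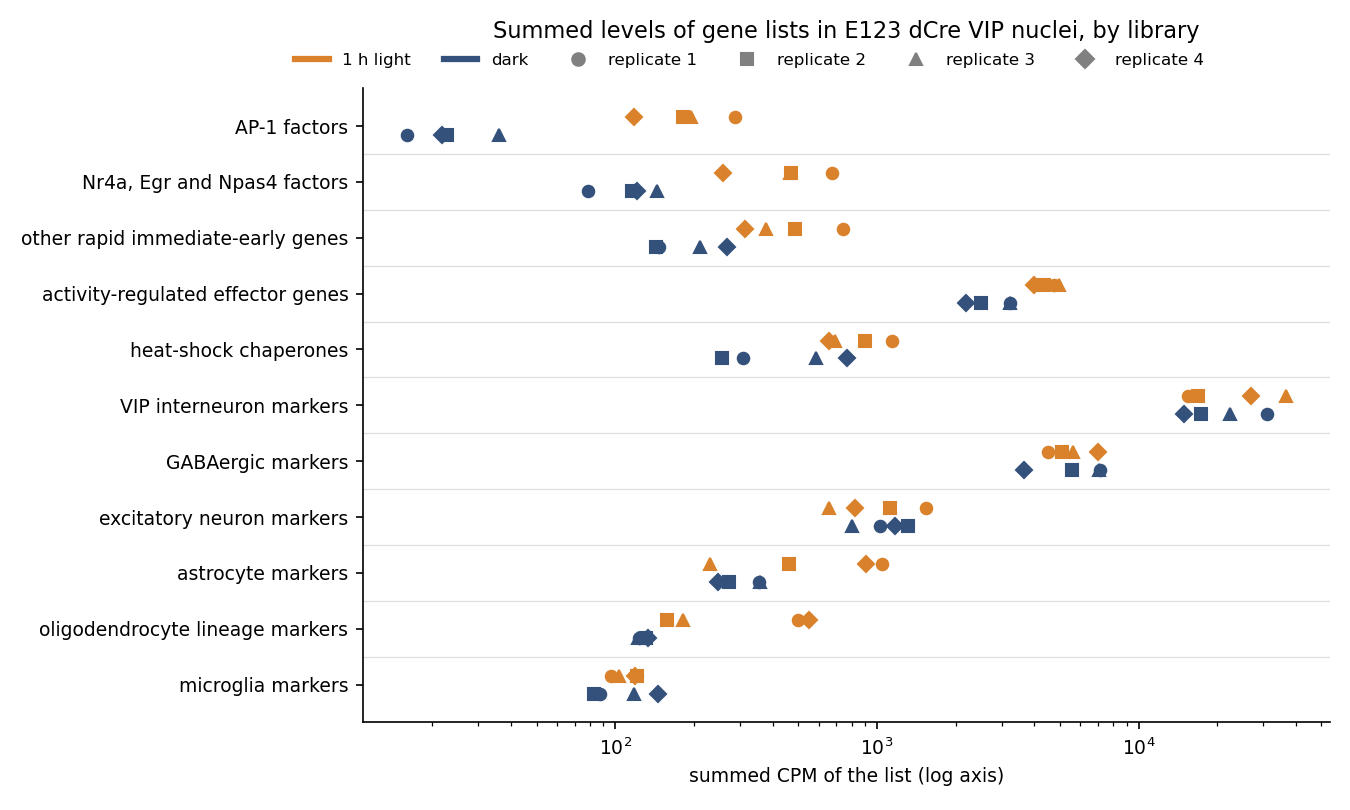
Summed CPM (log axis) of 11 gene lists in each light (orange, upper row) and dark (blue, lower row) E123 dCre VIP library, 1 marker shape per replicate. The AP-1 and the Nr4a, Egr and Npas4 sums are separated between light and dark, the heat-shock sums overlap, and light replicates 1 and 4 are high in astrocyte and oligodendrocyte markers.

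The balance of short and long genes differed as well. Genes under 10 kb had a median of 0.27 (3169 genes), genes of 10 to 100 kb -0.05 (8715 genes) and genes over 100 kb -0.17 (2257 genes). Without dark replicates 1 and 2 these were -0.12, -0.09 and 0.01, so this order rested on those libraries. The length index itself was 3.75 ± 0.187 after light and 4.25 ± 0.703 in the dark (SD, n = 4 each), a difference of -0.50 with an exact permutation p = 0.343. With the index as a covariate the fit called 22 genes, 20 higher and 2 lower, among them Fosl2, Nr4a1, Egr1, Sik2, Sik3, Pde10a and Mir670hg.

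**Figure D4:**
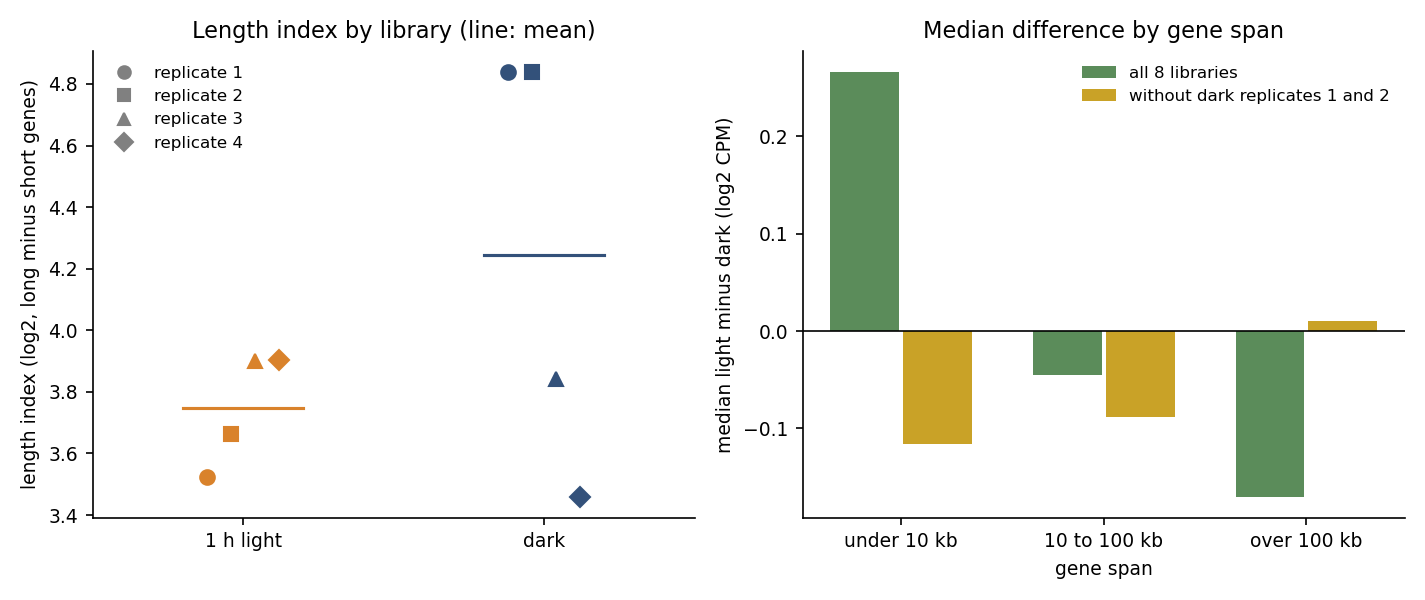
Length index (mean log2 CPM of genes spanning more than 100 kb minus that of genes under 10 kb) in each light (orange) and dark (blue) E123 dCre VIP library, left, with a line at each group mean, and the median log2 difference, light over dark, by gene span with and without dark replicates 1 and 2, right. Dark replicates 1 and 2, both at 4.84, stand above the other 6 libraries, which lie between 3.46 and 3.90, and the median of genes under 10 kb is 0.27 with all 8 libraries and -0.12 without them.

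The same light comparison in other libraries shows how far the response holds outside these 8. The E23 dCre response called 10 genes in VIP nuclei (0.0486%), 7 higher (0.034%) and 3 lower (0.0146%). The E1 dCre response called 860 (4.18%), 552 higher (2.68%) and 308 lower (1.5%). The E123 Cre response called 1 gene, which was higher (0.00486%), and the E123 dCre total nuclei 21 of 22926 (0.0916%), 17 higher (0.0742%) and 4 lower (0.0174%). Fosl2 rose in E23 (3.11, edgeR adjusted p = 0.0178), in E1 (2.11, adjusted p = 0.0359) and in E123 total nuclei (3.03, adjusted p = 0.01), and stood at 2.81 with Cre (adjusted p = 0.315). Nr4a1 rose in E23 (3.02, edgeR adjusted p = 1.43e-05), in E1 (1.45, adjusted p = 0.0307) and in total nuclei (2.43, adjusted p = 4.88e-05), and stood at 1.65 with Cre (adjusted p = 0.431). The fitted sizes of the E123 response thus lay within the range of the other 4 for Nr4a1 and just above it for Fosl2. No difference between responses passed for either gene.

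How genes called in the other lines stood in E123 depended on the dark libraries of high length index. E1 has such libraries too: its dark replicates 1 and 2 had indices of 4.95 and 4.89, against 3.20 in its dark replicate 3 and 2.496 to 3.555 in its light libraries. Those of E23 were 2.28 to 2.57 after light and 2.29 to 3.37 in the dark. Averaged over E1 and E23, light called 597 genes higher (2.9%) and 373 lower (1.81%). Of the 597, 511 were also higher in the E123 fit (85.6%, against 48.9% of all genes), and of the 373, 287 were lower (76.9%, against 50.1%). With dark replicates 1 and 2 of E123 left out, 375 of 656 genes called higher were higher in E123 (57.2%, against 48.65%), and 177 of 377 called lower were lower (46.95%, against 48.2%). The shared direction of these lists in E123 thus rested largely on those libraries.

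The calls of E1 were made with its own high-index libraries, dark replicates 1 and 2, included. Of the 552 genes called higher in E1, 438 were higher in E123 (79.35%, against 48.9% of all genes). Of the 308 called lower, 211 were lower (68.5%, against 50.1%). Without dark replicates 1 and 2 of E123 these were 292 of 580 (50.3%, against 48.65%) and 125 of 356 (35.1%, against 48.2%). Leaving out dark replicates 1 and 2 of E1 keeps 1 dark library, assumed to vary like the other groups. A loss of calls cannot then be told apart from the loss of libraries. Whether the E1 calls, those of Fosl2 and Nr4a1 included, depended on the high index was therefore not tested. The genes called higher in E23 moved less: all 7 of them were higher in E123 with an unadjusted p under 0.05, against 3.3% of all genes. In 6 of them the groups did not overlap (85.7%, against 2.22% of all genes). Without dark replicates 1 and 2 of both E123 and E1, E23 again called 7 genes higher, all 7 of them higher in E123 with a median of 1.96. The 3 genes called lower in E23 were lower in E123, against 50.1% of all genes. Of these 3, 1 had an unadjusted p under 0.05 (33.3%, against 3.66% of all genes). The shared lower direction did not hold without the high-index libraries. With dark replicates 1 and 2 of E123 left out, E23 called 1 gene lower, which was not lower in E123 (0.13). With those of both lines left out, 1 of the 2 genes called lower was lower in E123 (50%, against 45% of all genes, median -0.07).

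The difference between the E123 and E23 responses called 0 genes in edgeR, with 988 at an unadjusted p under 0.05 (4.8%), and 12 in DESeq2. Igf1 stood at 0.76 ± 0.232 in E123 and 0.34 ± 0.231 in E23, and the difference of 0.42 ± 0.326 did not pass (edgeR adjusted p = 1.0). The dark Igf1 level was 415.7 ± 126 CPM in E123 and 596.3 ± 73.8 CPM in E23 (SD, n = 4 each), and the light level was 705.4 ± 84.8 and 757 ± 122 CPM. Mir670hg, which rose in E23 (1.80, edgeR adjusted p = 0.031), had almost the same fitted difference in E123 at 1.82.

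The difference between the E123 and E1 responses called 11 genes (0.0534%), 4 higher (0.0194%) and 7 lower (0.034%) in E123. Mbtps2 stood at -1.33 ± 0.316 in E123 and at 1.26 ± 0.335 in E1, where it rose (edgeR adjusted p = 0.023), a difference of -2.59 (adjusted p = 0.0074). Kpna1, an importin that carries proteins into the nucleus, differed by 2.53, and Rapgef3, a cAMP-activated exchange factor for Rap, by 3.26, both higher in E123. Lin7a, a synaptic scaffold, differed by -3.50, the transcription cofactor Sub1 by -2.99 and the glycosyltransferase Extl2 by -3.68, all lower in E123. The count rested on single libraries of E1: it was 740 without E1 dark replicate 3 and 2 without E1 dark replicate 1. Pde10a, which had no overlap in E123, stood at -0.23 in E1 (difference 1.96 ± 0.660, edgeR adjusted p = 0.277).

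The comparison of E123 dCre with E123 Cre asks whether the response of the same line changes once the enhancers can be cut. It called 0 genes in edgeR, with 740 at an unadjusted p under 0.05 (3.59%), and 11 in DESeq2. Igf1 stood at 0.76 ± 0.232 with dCre and 0.03 ± 0.249 with Cre, a difference of 0.74 ± 0.339 with an unadjusted p of 0.0339 (edgeR adjusted p = 1.0). After light it was 705.4 ± 84.8 CPM with dCre (SD, n = 4) and 300.5 ± 47.3 CPM with Cre (n = 4), and in the dark 415.7 ± 126 CPM with dCre (n = 4) and 295.3 ± 56.7 CPM with Cre (n = 3). Fosl2 and Nr4a1 differed by 0.56 and 0.44, with standard errors of 0.807 and 0.548.

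The comparison of VIP with total nuclei of E123 dCre called 0 of 22926 genes in edgeR, with 959 at an unadjusted p under 0.05 (4.18%). A fit that took VIP and total libraries of the same number as 1 animal, which the labels do not state, also called 0. Igf1, scarce in total nuclei, had 9.24 ± 11.01 CPM after light and 17.6 ± 9.53 CPM in the dark there (SD, n = 4 each), a difference of -0.93 ± 0.764. Egr1 had almost the same response in VIP and total nuclei, 2.92 in each fit.

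Over the 3 immediate-early lists, 41 of 45 tested members of 47 were higher in the fit (91.1%, against 48.9% of all genes) with a median of 1.74. In 9 of them every light library lay above every dark one (20%, against 2.22%). At an unadjusted p under 0.05, 19 of the 45 were higher, against 3.3% of all genes. These lists were chosen with earlier results of these data known, so the shares describe them and are not a test. The same 45 genes had medians of 1.64 in E23, 1.83 in E1, 1.91 in E123 with Cre and 2.19 in E123 total nuclei, with 40, 40, 43 and 43 of them higher. No E123 library is shared with the E23 and E1 comparisons, nor between dCre and Cre or between VIP and total nuclei. VIP and total libraries of the same number may still come from the same mouse, which the labels do not state. The VIP and total libraries of dark replicate 2 were the only 2 of 96 that went against their sex label. The VIP and total responses are therefore not taken as independent.

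**Figure D5:**
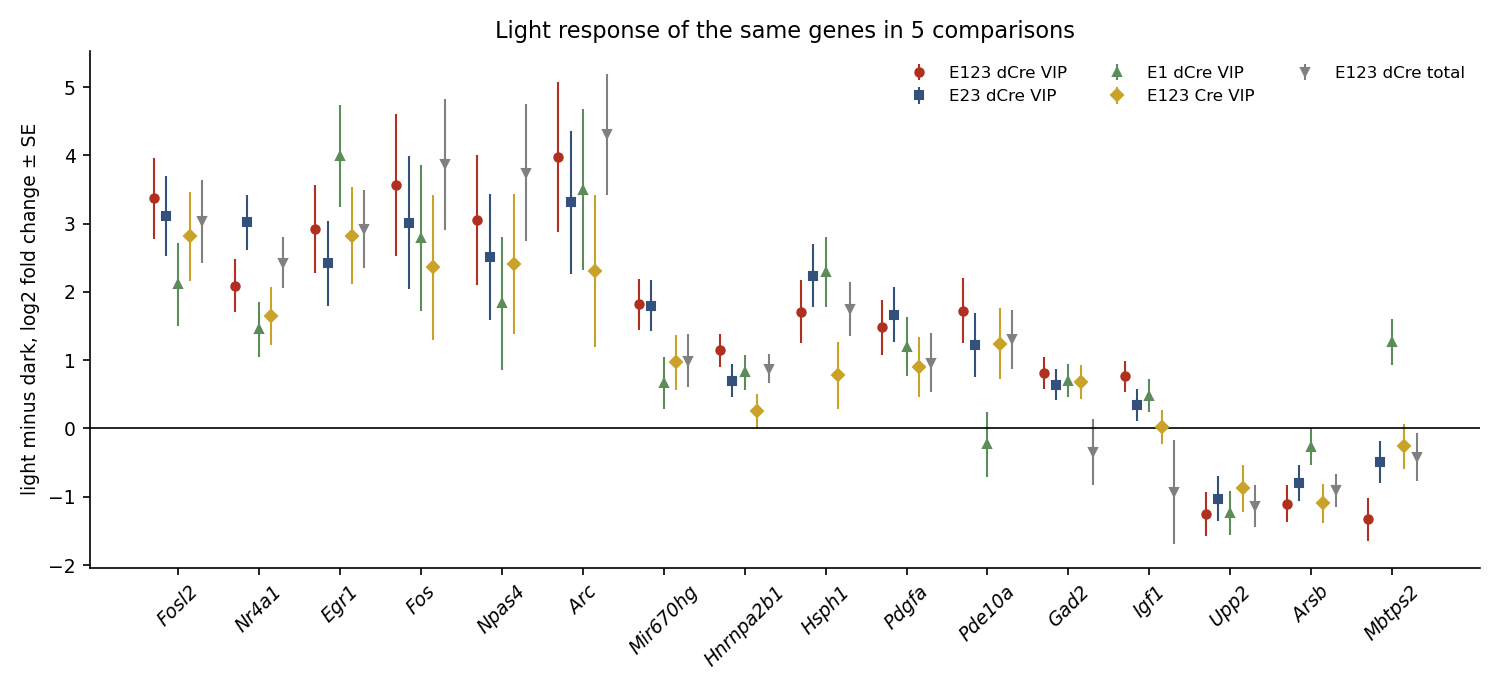
Fitted log2 differences, light over dark, with standard errors, of named genes in 5 comparisons: E123 dCre VIP first, then E23 dCre VIP, E1 dCre VIP, E123 Cre VIP and E123 dCre total nuclei. Fosl2 lies between 2.11 and 3.37 and Nr4a1 between 1.45 and 3.02 in the 5, and Igf1 lies between -0.93 and 0.76.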

How the data were processed

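Nuclear RNA of sorted nuclei was sequenced after oligo-dT priming, template switching and 17 cycles of PCR, per the labels' protocols, a chemistry that marks no strand. The authors deposited 1 table of raw counts per gene and library for 96 libraries, and the submitters' processing notes name cutadapt 1.18, STAR 2.5.3a, HOMER 4.9.1 and the mm10 build. The annotation release and strand setting are not given in the sources used here. Of 55335 gene identifiers, 55154 matched a GENCODE annotation of that build, and the 181 others held 0.0225% of counts.

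The 48 VIP libraries were fitted with edgeR 4.0.16 in R 4.3.3 (12 groups, TMM scaling, default filter on low counts, robust quasi-likelihood F test). All 96 libraries were fitted for the comparison with total nuclei. A gene passed at a Benjamini-Hochberg adjusted p under 0.05. The SE was obtained by dividing each log2 difference by the root of its F statistic. The sum of a list counts its members in CPM on TMM library sizes. Single values used an exact permutation test of 70 splits. Promoter windows came from RefSeq. Named genes were Igf1, Vip, Fos and Npas4, genes past the threshold, as many as 8 higher and 8 lower genes ranked by p (p under 0.001, separated groups, a mean of at least 5 CPM, predicted genes left out), up to 4 members of each list by p, and up to 5 genes in each direction of the differences between responses. A few others are named for their role in a list, after their values were seen. The members and lists were chosen with earlier results of these data known. The alternatives were another scaling (RLE, total counts), DESeq2 1.42.0, no filter, only the 8 libraries, sex, length index and replicate number as covariates, and libraries left out. The reads came from PCR and carry no molecular identifiers, so a floor of 3 counts covers counting error only. No pair within the 4 light or within the 4 dark E123 dCre VIP libraries was a duplicate, and other pairs were not checked. The fits were tested on simulated data.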

Additional observations from a re-analysis of the deposited data

Results flagged for a closer look

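In groups of 4 libraries, 9 of 156 groups checked held a value far from the other 3, where chance gives about 1 in 20. In light libraries, replicate 1 was the highest by far for Mt1 (37.8 CPM, next 16.8), Gadd45b (22.1 CPM, next 13.04) and Ccn1 (74.7 CPM, next 5.53). In dark libraries, replicate 1 was the lowest by far for Nr4a1 (27.97 CPM, next 41.1) and Igfbp5 (0.799 CPM, next 4.67), replicate 2 the highest for the second Myl12b identifier (22.4 CPM, next 18.7), and replicate 4 the lowest for Ptbp2 (120.0 CPM, next 179.5) and the highest for Fosb (1.30 CPM) and Ccn1 (1.56 CPM), with the others at 0.

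The light response differed between E123 and E1 by an edgeR test of the difference itself, in 11 genes of which these 9 are named: Mbtps2 (-2.59), Kpna1 (2.53), Gm15564 (4.20), Rapgef3 (3.26), Gm45321 (2.83), Lin7a (-3.50), Pcdhb17 (-8.97), Sub1 (-2.99) and Extl2 (-3.68), on the log2 scale. Pcdhb17 averaged only 0.0566 CPM in the E1 dark libraries, so its size depends on the prior count of the fit and is not a bound.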

How the results depend on the processing

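The light response called 2 genes, 2 with DESeq2's size factors in edgeR, 3 with total counts, 5 from the 8 libraries alone, 35 in DESeq2 (27 higher and 8 lower), 65 with no filter on low counts (55 and 10, glial genes among them), 22 with the length index as a covariate and 8 with the sex label (3 and 5, Y-linked genes among them). It called 0 without dark replicates 1 and 2, fitted with the other VIP libraries or alone, and 0 to 3 without 1 replicate. Chosen after seeing the data, sex with dark replicate 2 as male called 3. The replicate block called 1 gene, Fosl2 (edgeR adjusted p = 0.0242), and the Nr4a1 light minus dark difference missed the threshold (0.0616). Same-numbered light and dark libraries correlated at -0.235, 0.171, -0.104 and -0.015, and not every library correlated best with its own number. The labels state no pairing, and these values cannot exclude one. The E123 minus E23 difference called 0 genes, 12 in DESeq2 and 6 with no filter. The E123 minus E1 difference called 11, 128 in DESeq2, 217 with no filter, 52 without dark replicates 1 and 2, 19 with the sex label, 2 with the length index and 2 to 740 without 1 replicate. The dCre minus Cre difference called 0 genes and 11 in DESeq2, and the VIP minus total difference 0 under each alternative run, the replicate block by animal included. The cause of these differences was not tested. In the differences used for the permutation test, Igf1 ranged from 0.60 to 0.97, Vip from 0.47 to 1.05 and the length index from -0.76 to -0.30 without 1 replicate in turn. The edgeR differences ranged from 0.595 to 0.941 for Igf1 and from 0.401 to 0.933 for Vip without 1 replicate in turn. Fosl2 ranged from 3.18 to 3.64 over 19 alternatives and passed in 13, and Nr4a1 from 1.93 to 2.27 and passed in 10. List medians near 0 changed sign between settings: IGF signalling lay between -0.16 and 0.26, the clock list between -0.25 and 0.11, the channel list between -0.24 and 0.12, the postsynaptic list between -0.16 and 0.24 and the endothelial and mural list between -0.45 and 0.39. Also chosen after seeing the data, genes called in E1 and E23 were read in E123 without the high-index dark libraries. Pools of 50 to 100 nuclei limit low genes: where a group holds only a few counts, a change was not detectable at this depth.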
